A study of Homo sapiens with 9 samples.

Results

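The genes described are the numbered members of 2 large families of ubiquitin ligases, named RNF (RING finger) and TRIM (tripartite motif), in a human melanoma line given the microRNA miR-199a-3p. Members were chosen by symbol alone: RNF or TRIM followed by a number and at most 1 letter, with RNF14 left out. Of 14812 genes named on the array, 126 met this rule, 66 of them RNF and 60 TRIM genes. The current RefSeq table lists 156 protein-coding genes under the same rule. Of these, 30 have no row with their symbol alone in the platform annotation used and were not analysed here.

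Ubiquitin is a small protein that cells attach to other proteins to mark them for destruction by the proteasome or to change where they go and what they bind. The attachment is catalysed by ligases, and most RNF and TRIM proteins carry a RING domain, a zinc-binding fold that brings the ubiquitin-charged enzyme to its substrate. RNF proteins share little beyond the RING and work in the nucleus, at the endoplasmic reticulum, in endosomes and in cell signalling. TRIM proteins join the RING to B-box and coiled-coil segments, and many of them act in antiviral defence or on chromatin.

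WM266-4 is an established line from a human melanoma metastasis, and the cells used here also carried GFP. By lipofection they received a mimic of miR-199a-3p at 0.5 nM (3 arrays), the same mimic at 0.25 nM (3 arrays), or a control microRNA at 0.5 nM (3 arrays), and total RNA was taken after 48 h. The control was used at 0.5 nM only, so the 0.25 nM mimic has no control of its own dose. The labels call the arrays biological triplicates and give no clone, passage or transfection day.

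A microRNA pairs with messenger RNAs mainly through its seed, bases 2 to 8, and lowers the level or the translation of many transcripts at a time. The mature sequence of miR-199a-3p is shown because it is the agent tested, and the other human mature microRNAs with the same seed in the RefSeq table because a matching site would answer to them as well. Sequences are written 5′ to 3′ from RefSeq (GRCh38.p14), with the seed in capitals. The sequence of the mimic as transfected was not used here.
miR-199a-3p (genes MIR199A1, chr19:10817429-10817450, and MIR199A2, chr1:172144554-172144575, both minus strand): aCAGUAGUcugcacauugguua
miR-199b-3p (gene MIR199B, chr9:128244745-128244766, minus strand): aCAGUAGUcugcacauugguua
miR-3129-5p (gene MIR3129, chr2:189133082-189133103, minus strand): gCAGUAGUguagagauugguuu
A transcript paired to the whole seed carries ACUACUG. Target sites in the members' transcripts were not analysed here.

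The values are log2 intensities, so a difference of 1 is a doubling of signal. Arrays were shifted to the same median over the genes with a value on every array. This was done because the unshifted median change over all genes was 0.10 at 0.5 nM and 0.14 at 0.25 nM against control. After the shift it was 0.01 and -0.02. Probes of different genes differ in brightness, so levels of different genes are signals and not amounts of transcript. Exactly equal values stood on all 3 arrays of a group in 48.6% of rows at 0.5 nM, 42.0% at 0.25 nM and 47.8% in control, and never between arrays of different groups. Among the members, 55, 50 and 65 were tied in this way. In a tied group the small differences printed between arrays come from the shift alone, so its arrays are not separate readings. The spread within a group is therefore a poor measure of error, and the main test treated each group as a single unit (limma on the 3 group means, both doses against control). Its error comes from the difference between the doses, moderated over all genes. A second limma fit took the 9 arrays as replicates. It called 63.3% of all genes at 0.5 nM and 64.2% at 0.25 nM against control, and its calls are read against those shares. The 9 measured melanoma markers (10 listed) had control means from 6.41 (BCAN) to 12.74 (TYR, an enzyme of pigment synthesis), with 9.95 for MITF and 9.51 for SOX10, transcription factors of the melanocyte lineage. The 5 measured epithelial markers (6 listed) ran from 4.13 (KRT5) to 8.21 (KRT18), with 4.31 for EPCAM, and the monocyte gene CD14, the only measured leukocyte marker of 5 listed, had 4.88.

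RNF genes were more often bright than TRIM genes. In control arrays 59 members (46.8%) had a mean signal of 7 or more, against 38.0% of all genes. The share was 57.6% of RNF genes (38 of 66) and 35.0% of TRIM genes (21 of 60). The median control signal was 7.32 for RNF genes, 6.23 for TRIM genes and 6.26 for all genes, and members ran from 2.53 to 10.82. Just inside the level of 7 were RNF103 (7.14) and RNF146 (7.05), and just outside it TRIM11 and RNF223 (6.98 each).

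The 5 brightest members in control were TRIM33, RNF114, TRIM2, TRIM28 and RNF19B. TRIM33, a chromatin regulator that also restrains SMAD4 signalling, had 10.77, 10.76 and 10.76 in 0.5 nM arrays, 10.77 and 10.68 in the 0.25 nM arrays kept, and 10.85, 10.81 and 10.81 in control arrays. TRIM28, the corepressor of zinc finger proteins that silences transposons, had 10.07, 10.16 and 10.16 at 0.5 nM, 9.75, 10.20 and 10.05 at 0.25 nM, and 10.02, 10.27 and 10.23 in control. Every mimic array of TRIM33 lay below the control arrays, with changes of -0.06 and -0.10, whereas the groups of TRIM28 overlapped. RNF114, a RING protein linked to interferon responses, differed from its control mean of 10.27 by -0.08 at 0.5 nM and 0.05 at 0.25 nM. TRIM2, an NHL-repeat ligase known from neurons, differed from its control mean of 10.27 by 0.00 and -0.19. RNF19B, a ligase of the RING-between-RING class, differed from 9.72 by -0.07 and -0.11.

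No member passed the group-level limma test of both doses against control (0 of 126, where 0.128% of all genes, 19 of 14812, were called). At an unadjusted p under 0.05 the same limma fit held 7 members (5.56%), against 6.56% of all genes. They were RNF141, RNF220, RNF208 and TRIM64, lower with the mimic, and RNF185, TRIM59 and TRIM64B, higher with it. The median mean change over both doses was -0.01 for the members and -0.01 for all genes, and 18.3% of members against 22.1% of genes differed from control by more than 0.3. The standard deviation of the mean change was 0.29 over the members and 0.27 over all genes.

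**Figure D1:**
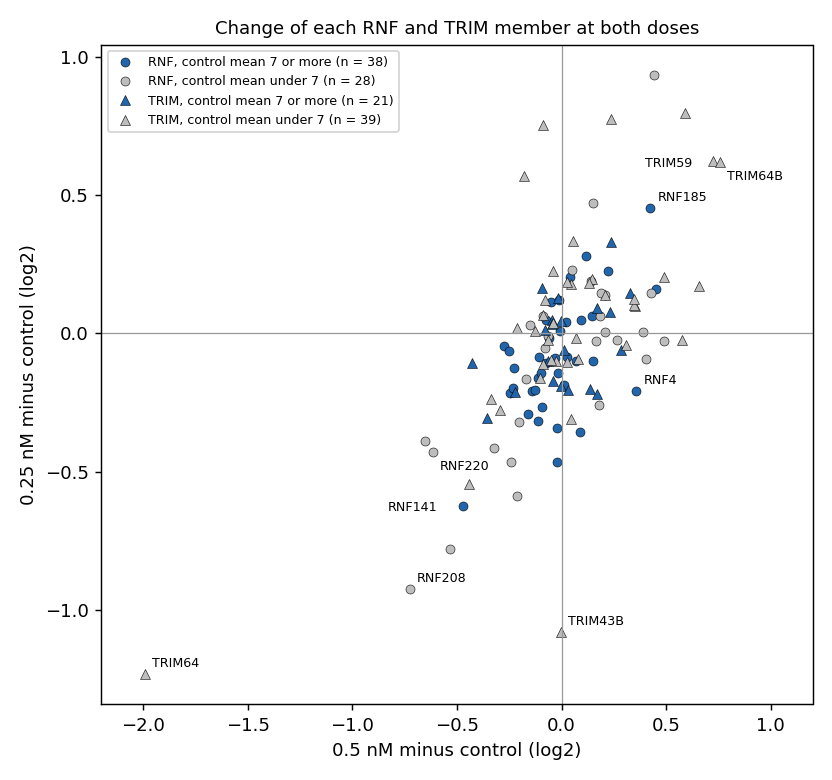
Change of each of the 126 members from control at 0.5 nM (x axis) and at 0.25 nM (y axis), in log2 units; circles are RNF and triangles TRIM genes, blue where the control mean was 7 or more and grey where it was under 7. Both axes subtract the same 3 control arrays, which alone draws points toward the diagonal; most members lie within 0.5 of zero, and TRIM64, at -1.99 and -1.23, lies furthest out.

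Counted over the 9 arrays, limma called 86 members at 0.5 nM against control, 45 higher (background 33.2%) and 41 lower (background 30.1%). At 0.25 nM the 9-array limma fit called 79 members, 30 higher (background 30.3%) and 49 lower (background 33.9%). As shares of the members these are 35.7% and 32.5% at 0.5 nM, and 23.8% and 38.9% at 0.25 nM, and whether they differ from the background was not tested. Left unshifted, the arrays gave 65 higher and 21 lower at 0.5 nM, and 66 higher and 23 lower at 0.25 nM, so the split between directions rests on the scaling. All mimic arrays kept lay below all 3 control arrays for 30 members (22.5% of all genes) and above them for 25 (22.6% of all genes). Both doses share the control arrays, so their calls are not independent of each other.

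Among the 59 brighter members, the 9-array limma fit called 16 higher and 16 lower at 0.5 nM (20.6% and 29.9% of all genes at that level) and 10 higher and 27 lower at 0.25 nM (20.6% and 32% of such genes). All mimic arrays kept lay below control for 13 of them (23.6% of genes at that level): TRIM33, RNF13, RNF144A, TRIM4, RNF181, RNF123, RNF141, RNF170, TRIM8, RNF139, RNF113A, TRIM41 and RNF166. They lay above control for 9 (14.3% of genes at that level): TRIM37, RNF25, TRIM27, RNF7, RNF214, TRIM24, RNF185, TRIM32 and RNF103. RNF144A, RNF170 and RNF214 are named for these counts only, after their values were seen. The control mean that sets the level of 7 also enters the change, so genes just above that level lean toward lower values with the mimic by construction. The median mean change was -0.03 for the 59 members and -0.03 for all genes at that level. After the shift 26 of the 59 had lower means at both doses (41.9% of genes at that level) and 12 higher ones (1539 of 5632 such genes). On unshifted arrays 11 were lower and 31 higher, so the directions here also rest on the scaling.

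Of the brighter members RNF141 lay furthest below control. RNF141, a little-studied RING protein described mainly in testis, had 7.79, 7.75 and 7.75 in 0.5 nM arrays, 7.62 and 7.60 in the 0.25 nM arrays kept, and 8.23 on each control array. Every mimic array was below every control array, with changes of -0.47 at 0.5 nM and -0.62 at 0.25 nM. In the group-level limma test its mean change was -0.55 ± 0.161 (SE), with an adjusted p of 0.290 that ranged from 0.18 to 0.836 over the alternative settings, so it was not called. It ranked 83 of 14812 genes by p in that limma test.

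Further brighter members lay below control by less. TRIM41, a ligase of protein kinase C that also restricts viruses, had 6.88, 6.87 and 6.87 at 0.5 nM, 6.93, 6.92 and 6.92 at 0.25 nM, and 7.20, 7.24 and 7.24 in control. TRIM8, a regulator of SOCS1 and NF-kappaB signalling, had 7.44, 7.43 and 7.39 at 0.5 nM, 7.73, 7.74 and 7.74 at 0.25 nM, and 7.78, 7.88 and 7.88 in control. TRIM41 sat about equally low at both doses, whereas TRIM8 was lower at 0.5 nM (-0.43) than at 0.25 nM (-0.11). TRIM4, which modifies the RNA sensor RIG-I, lay at -0.22 and -0.21. RNF166, which marks bacteria for autophagy, lay at -0.23 and -0.20. RNF123, the catalytic subunit of the ligase that removes the cell cycle inhibitor p27, lay at -0.16 and -0.29.

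RNF113A, a spliceosome protein that also serves DNA alkylation repair, had 7.12, 7.08 and 7.04 in 0.5 nM arrays, 7.12, 7.11 and 7.11 in 0.25 nM arrays, and 7.33 on each control array. RNF181, a ligase of the BCL10 signalling complex, had 8.45, 8.43 and 8.43 at 0.5 nM, 7.99 and 8.01 at 0.25 nM, and 8.46 on each control array. The difference in RNF181 stood almost wholly at the lower dose, at -0.02 and -0.46. RNF139, a multi-spanning ligase of the endoplasmic reticulum that acts in sterol control, lay at -0.11 and -0.32. RNF167, a PA-domain ligase of endosomes and lysosomes, lay at -0.02 and -0.34, and its control arrays (8.94, 9.28 and 9.32) overlapped both mimic groups. Its 0.25 nM arrays (8.69, 8.95 and 8.88) each lay below the control array of the same number. Each of these brighter members had a group-level limma adjusted p of 0.843 or more except RNF141.

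In the other direction RNF185 stood first. RNF185, a ligase that clears misfolded proteins from the endoplasmic reticulum, had 7.80, 7.79 and 7.78 at 0.5 nM, 7.78, 7.84 and 7.84 at 0.25 nM, and 7.21, 7.44 and 7.44 in control. Its mean change in the group-level limma test was 0.44 ± 0.166 (SE), with an adjusted p of 0.507 that ranged from 0.414 to 0.959 over the alternative settings. A second, dimmer row of RNF185, with a control mean of 6.52, lay at -0.04 and -0.02, so the rows of this gene disagreed.

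RNF43, a membrane ligase that removes Wnt receptors from the cell surface, had 7.81, 7.84 and 7.84 at 0.5 nM, 7.53, 7.55 and 7.55 at 0.25 nM, and 7.16, 7.45 and 7.53 in control. The 0.5 nM arrays were clear of control, and the 0.25 nM arrays met the highest control array. TRIM27, a nuclear TRIM ligase with roles in transcription and endosomal sorting, had 8.59, 8.54 and 8.52 at 0.5 nM, 8.38, 8.37 and 8.37 at 0.25 nM, and 8.22 on each control array. Its array rows number 8, and over all of them the change ran from -0.13 to 0.33 at 0.5 nM and from 0.08 to 0.15 at 0.25 nM. The higher value at 0.5 nM thus came from the brightest row, and the mean of the rows reversed it (-0.01).

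TRIM24, a chromatin reader that also targets p53, had 7.94, 7.93 and 7.93 at 0.5 nM, 8.03 and 8.02 at 0.25 nM, and 7.70 on each control array. RNF25, a ligase that acts at stalled ribosomes, had 8.56, 8.54 and 8.54 at 0.5 nM, 8.56, 8.55 and 8.55 at 0.25 nM, and 8.33 on each control array. The group values of both genes were above control at both doses, for RNF25 by nearly the same amount (0.22 and 0.23). Both were tied within every group before the shift, so their arrays do not count as separate readings. RNF103, a ligase of the endoplasmic reticulum, lay at 0.11 and 0.28. TRIM32, an NHL-repeat ligase mutated in a muscular dystrophy, lay at 0.23 and 0.08, and TRIM37, which acts on histones, peroxisomes and centrioles, at 0.17 and 0.09. RNF7, the RING subunit that drives cullin ligases, lay at 0.04 and 0.20. These had group-level limma adjusted p-values of 0.836 or more.

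**Figure D2:**
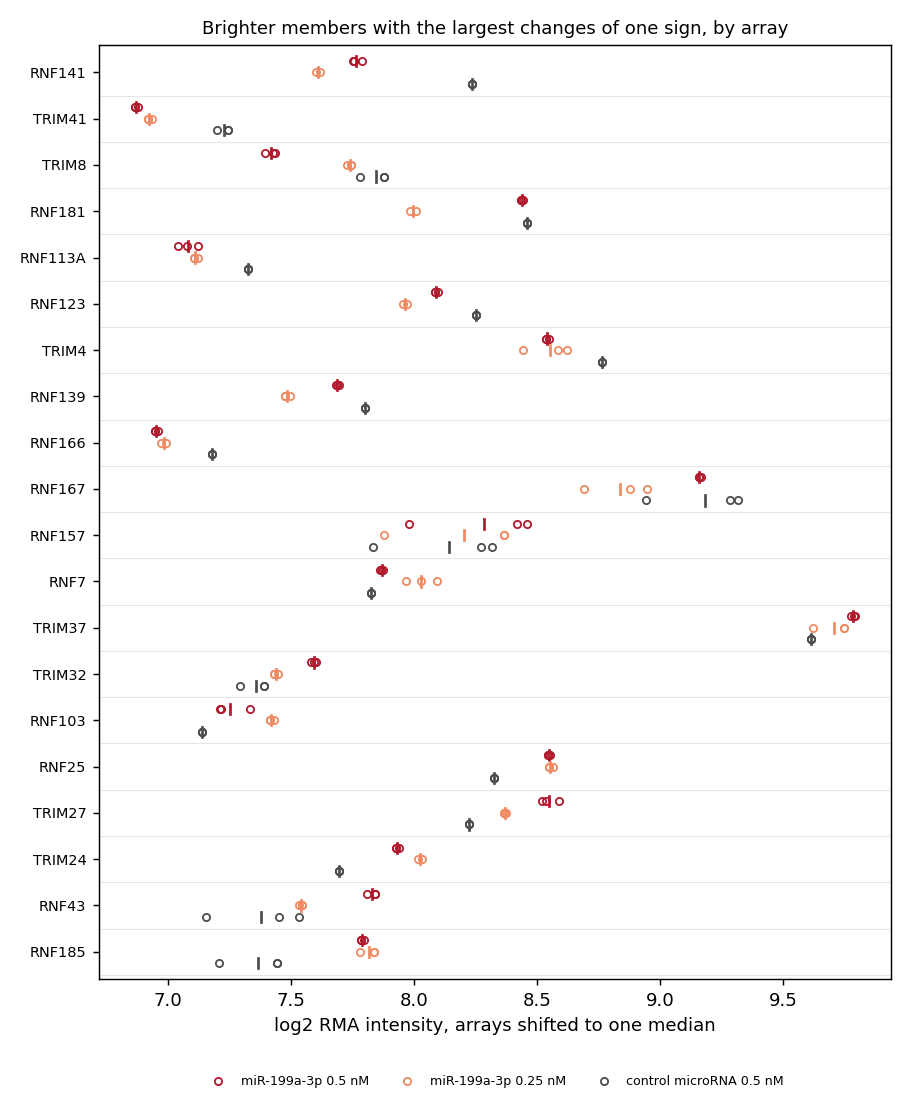
Shifted log2 intensity of the 20 brighter members with the largest mean changes of the same sign at both doses; each point is an array, ticks are group means, and rows run from the lowest mean change (RNF141) at the top to the highest (RNF185) at the bottom. Within most groups the points nearly coincide, while RNF157 spreads within every group and RNF167 at 0.25 nM and in control. Both genes overlap between groups.

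RNF157, a ligase known from neurons, was the member in which the replicate number mattered most. It had 7.98, 8.46 and 8.42 at 0.5 nM, 7.88, 8.37 and 8.37 at 0.25 nM, and 7.83, 8.27 and 8.32 in control. Replicate 1 lay below the mean of the other replicates by 0.46, 0.49 and 0.46 in the groups in that order, more than the changes of 0.14 and 0.06 from control. The 9-array limma fit did not call it (adjusted p 0.577 and 0.812), whereas limma blocked on replicate number called it higher at both doses (adjusted p 0.00156 and 0.0327). Replicate 1 stood lower by more than 0.1 in all groups for RNF115, RNF157 and TRIM26 (2.38% of members, against 4.58% of genes). It stood higher by as much for RNF213 alone among the members (0.794%, against 2.11% of genes). RNF115, TRIM26 and RNF213 were chosen after their values were seen. Whether a shared day or batch set this was not tested.

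The lists of members by role gave small shifts in both directions. In the 9-array limma fit 33.2% of all genes were called higher and 30.1% lower at 0.5 nM, and 30.3% and 33.9% at 0.25 nM. The counts of each role list below stand beside these shares, and whether they differ from them was not tested. The counts of calls and the medians of these lists are from shifted arrays. Of 7 measured genes for chromatin and transcription (10 listed), the 9-array limma fit called 3 higher and 1 lower at 0.5 nM, and 2 higher and 3 lower at 0.25 nM, with a median mean change of -0.08. TRIM66, a chromatin reader of the TRIM24 group, lay at -0.30 and -0.28 from a dim control mean of 6.46, opposite to TRIM24. Of 3 measured DNA damage genes (6 listed), 1 was higher and 1 lower at 0.5 nM, and 2 were lower at 0.25 nM. Their median mean change was -0.04.

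The endoplasmic reticulum list had 11 of 12 genes measured, 4 called higher and 6 lower at 0.5 nM, and 3 higher and 6 lower at 0.25 nM, with a median of -0.09. It holds members at both ends: RNF185 and TRIM59 were higher, RNF139 lower. RNF145, its brightest gene and a ligase tied to cholesterol control, lay at 0.01 and -0.19. TRIM59, anchored in that membrane, had 5.86, 5.77 and 5.76 at 0.5 nM, 5.70, 5.68 and 5.71 at 0.25 nM, and 5.06, 5.10 and 5.06 in control. Its groups did not overlap, and the group-level limma adjusted p was 0.582.

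Of the RING-between-RING ligases 6 of 7 were measured, with 3 called higher and 1 lower at 0.5 nM, 1 higher and 2 lower at 0.25 nM, and a median of -0.01. RNF31, the catalytic subunit of the linear ubiquitin complex, had 6.88, 6.87 and 6.87 at 0.5 nM, 6.50, 6.49 and 6.49 at 0.25 nM, and 6.35, 6.54 and 6.57 in control. Only its 0.5 nM arrays stood clear of control.

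All 3 listed Wnt genes were measured, with 2 called higher and 1 lower at 0.5 nM, 2 lower at 0.25 nM, and a median of -0.13. RNF220, which stabilises beta-catenin, had 6.17, 6.18 and 6.20 at 0.5 nM, 6.38, 6.38 and 6.36 at 0.25 nM, and 6.78, 6.85 and 6.78 in control. Its mean change of -0.52 ± 0.219 (SE) had a group-level limma adjusted p of 0.620. RNF43, described above, lay the other way. ZNRF3, the close relative of RNF43 outside the numbered families, had 6.62, 6.61 and 6.61 at 0.5 nM, 6.51 and 6.79 at 0.25 nM, and a mean of 7.15 ± 0.164 in control (SD, n = 3), with no overlap and a group-level limma adjusted p of 0.532. RNF43 and ZNRF3, which both remove Wnt receptors, thus stood on opposite sides of control.

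The PA-domain list had 8 of 10 genes measured, with 3 called higher and 3 lower at 0.5 nM, 1 higher and 4 lower at 0.25 nM, and a median of -0.03. RNF13, its brightest gene and a ligase of endosomes, had 9.28, 9.22 and 9.22 at 0.5 nM, 9.28, 9.25 and 9.25 at 0.25 nM, and 9.34 on each control array. The pair RNF133 and RNF148, dim genes known from testis, lay apart, RNF133 at -0.53 and -0.78 and RNF148 at 0.44 and 0.94, from control means of 3.50 and 3.49.

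All 4 measured ligases of growth factor and endosome traffic (5 listed) had lower means at both doses, as did 41.9% of all genes at 7 or more, with a median mean change of -0.15. On unshifted arrays 2 of the 4 were lower and 1 higher at both doses, so this also rests on the scaling. Of these, 2 were called lower at 0.5 nM and 1 at 0.25 nM, and the 6 mimic arrays of each gene, pooled over doses and replicate numbers, overlapped control. RNF11, an adaptor in the A20 complex, had 9.06, 9.13 and 9.13 at 0.5 nM, 8.76, 9.20 and 9.15 at 0.25 nM, and 9.14, 9.24 and 9.35 in control. Each mimic array of RNF11 lay below the control array of its own number, though pairing by number is an assumption for replicates 2 and 3. RNF41, which degrades the growth factor receptor ERBB3, lay at -0.28 and -0.05. Of 3 measured genes for cullins and ribosome quality (3 listed), 1 was higher and 1 lower at 0.5 nM and 2 were higher at 0.25 nM, with a median of 0.12.

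**Figure D3:**
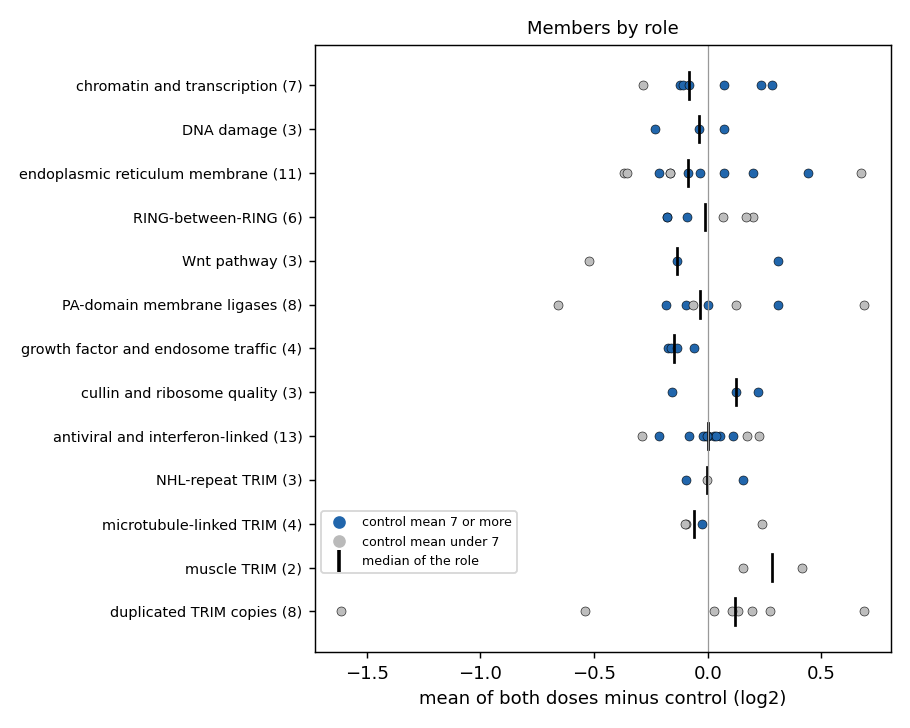
Mean change over both doses against control (log2) of each measured member, by role list, with the number of genes in brackets; blue points have a control mean of 7 or more, grey points one under 7, and black bars are medians. The medians run from -0.15 for growth factor and endosome traffic to 0.28 for the 2 muscle genes, and the widest spread is in the duplicated TRIM copies.

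The antiviral list, with 13 of 16 genes measured, was centred on zero after the shift (median 0.00). Of these, 5 were called higher and 3 lower at 0.5 nM, and 3 higher and 4 lower at 0.25 nM. After the shift 3 had lower and 2 higher means at both doses. Unshifted, where all genes had median changes of 0.10 and 0.14, 2 were lower and 9 higher. The centring thus rests on the scaling. TRIM22, an interferon-induced restriction factor, had 5.04, 5.04 and 5.04 at 0.5 nM, 5.10, 5.09 and 5.24 at 0.25 nM, and 5.37, 5.37 and 5.40 in control. TRIM5, the retroviral capsid sensor, lay the other way, with 5.98, 5.97 and 5.97 at 0.5 nM, 5.91, 5.89 and 5.90 at 0.25 nM, and 5.76 on each control array. TRIM14, an adaptor of antiviral signalling, had 6.64, 6.63 and 6.63 at 0.5 nM, 6.39, 6.37 and 6.37 at 0.25 nM, and 6.27, 6.29 and 6.29 in control. TRIM5 and TRIM14 were chosen after their values were seen, for their promoters. Their groups did not overlap, and their group-level limma adjusted p-values were 0.978 and 0.964. Of 10 measured interferon-stimulated genes (16 listed), the 9-array limma fit called 2 higher and 3 lower at 0.5 nM and 4 higher and 4 lower at 0.25 nM, with a median mean change of -0.05.

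A sequence feature that the rule did not use was counted in both families. The letters GAAA, any 2 bases and GAAA again form the core of the interferon-stimulated response element and were searched on both strands of RefSeq windows from 250 bases before to 50 after the gene start. They stood in 9 of 45 TRIM windows (20.0%) and 1 of 54 RNF windows (1.85%), against 996 of 27305 windows of all genes (3.65%). Windows were found for 99 of the 126 members, and the difference between the families was not tested. Of 11 antiviral members with a window 4 held the letters (36.4%), and these were TRIM5, TRIM14, TRIM21 and TRIM26. TRIM21, a cytosolic antibody receptor, lay at -0.02 and 0.13, and TRIM26, which tunes interferon signalling, at -0.04 and 0.05, so carriers of the letters did not share a direction. The 60 bases before the start are shown for the pair of these 4 in which the letters lie nearest to it on the upstream side, with the match in capitals as read on the gene's strand, where it appears as the reverse complement. The build is GRCh38.p14.
TRIM5 (chr11:5685075-5685134, minus strand): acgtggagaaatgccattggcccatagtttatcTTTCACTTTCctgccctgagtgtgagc
TRIM14 (chr9:98119223-98119282, minus strand): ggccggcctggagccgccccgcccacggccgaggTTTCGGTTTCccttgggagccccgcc
The match begins 27 bases before the start in TRIM5 and 26 in TRIM14. It is a match of letters and not a measured binding site.

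Of the remaining TRIM groups, 3 of 4 NHL-repeat genes were measured, with 1 called higher at 0.5 nM, 1 higher and 1 lower at 0.25 nM, and a median of 0.00. The 4 microtubule-linked genes (4 listed) had 1 higher and 2 lower at 0.5 nM and 2 lower at 0.25 nM, with a median of -0.06. TRIM9, the brightest of these and a neuronal ligase, lay at 0.01 and -0.06, and TRIM46, which organises the start of the axon, at 0.35 and 0.13. Of 2 measured muscle genes (3 listed), both were called higher at 0.5 nM and 1 at 0.25 nM, from a median control signal of 4.50. TRIM54, a muscle ligase of the sarcomere, had 5.89, 5.64 and 5.88 at 0.5 nM, 5.33 and 5.31 at 0.25 nM, and 5.15 on each control array.

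TRIM64, a dim gene among recently duplicated TRIM copies, had the largest mean change of all members. It had 2.78, 2.67 and 2.84 in 0.5 nM arrays, 3.53, 3.51 and 3.51 in 0.25 nM arrays, and 4.75 on each control array. Its changes from control were -1.99 and -1.23, the larger one at the higher dose. In the group-level limma test its mean change was -1.61 ± 0.363 (SE), with an unadjusted p of 7.9e-05 and an adjusted p of 0.0541 at rank 21 of 14812 genes, just outside the threshold. That call turned with the setting: the adjusted p of the limma test ranged from 0.00375 to 0.836. Leaving out 0.5 nM replicate 3 (0.00375), 0.5 nM replicate 2 (0.0141) or control replicate 1 (0.0396) brought TRIM64 past the limma threshold.

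Its near copy TRIM64B lay the opposite way. TRIM64B had 5.51, 5.50 and 5.39 at 0.5 nM, 5.34 and 5.32 at 0.25 nM, and 4.69, 4.72 and 4.72 in control, with changes of 0.76 and 0.62 and a group-level limma adjusted p of 0.620. A further copy, TRIM64C, chosen after its values were seen, lay at 0.07 and -0.02. TRIM43B had 5.18, 5.17 and 5.17 at 0.5 nM, 4.11, 4.09 and 4.09 at 0.25 nM, and 5.17 on each control array, so that only the lower dose differed. The control signals of these copies, with a median of 4.27, are as dim as those of EPCAM and CD14, and probes for near-identical copies can read each other's transcripts, so values of single copies are uncertain. Of 8 measured copies (14 listed), 4 were called higher and 1 lower at 0.5 nM, and 1 higher and 2 lower at 0.25 nM, with a median of 0.12.

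**Figure D4:**
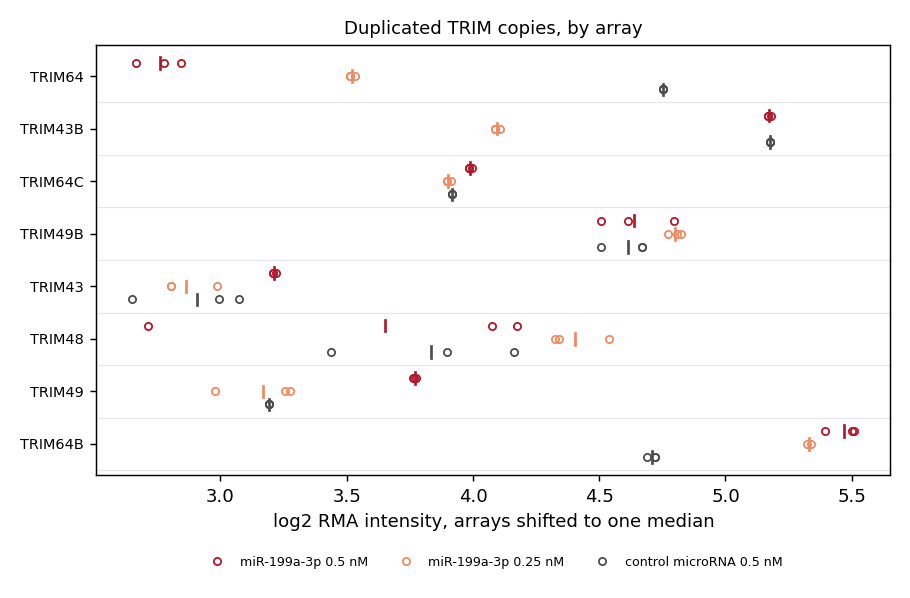
Shifted log2 intensity of the 8 measured duplicated TRIM copies, each point an array and each tick a group mean, from the lowest mean change at the top to the highest at the bottom. TRIM64 is lowest at 0.5 nM and TRIM64B is higher at both doses, while TRIM43B differs at 0.25 nM only and TRIM48 spreads widely within its groups.

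Other dim members differed in both directions. RNF208, a little-studied ligase, had 4.14, 3.97 and 3.97 at 0.5 nM, 4.22, 3.63 and 3.63 at 0.25 nM, and 4.75 on each control array, with a group-level limma adjusted p of 0.584. TRIM29, which lacks a RING and is known from epithelia, had 4.00, 3.99 and 3.98 at 0.5 nM, 4.21, 4.19 and 4.19 at 0.25 nM, and 3.65, 3.31 and 3.23 in control. TRIM10, known from red cell development, lay at 0.24 and 0.77. Its 8 rows held identical group means, so they do not count as separate readings. In RNF39, with 7 rows and chosen after its values were seen, all rows lay below control. They ran from -0.78 to -0.22 at 0.5 nM and from -0.59 to -0.46 at 0.25 nM. Most of the RNF39 rows also held identical group means, so their shared direction is not independent evidence.

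Between the doses the 9-array limma fit called 76 members (60.3%, against 62.2% of all genes), 47 higher at 0.5 nM than at 0.25 nM (background 35%) and 29 lower (background 27.2%). On unshifted arrays limma called 36 higher and 45 lower, so this split also rests on the scaling. The standard deviation over the members was 0.27 for the difference between doses, against 0.32 for the change at 0.5 nM and 0.32 for that at 0.25 nM. Over all genes these standard deviations were 0.305, 0.308 and 0.314. The median absolute difference over the members was 0.154 between doses, against 0.144 at 0.5 nM and 0.153 at 0.25 nM from control. Over all genes it was 0.168, 0.168 and 0.178 in that order. The doses of the same mimic thus differed from each other about as much as each differed from control, in the members as in all genes.

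RNF4, the ligase that targets SUMO-tagged proteins in DNA repair, showed the widest gap among the brighter members. It had 8.56, 8.55 and 8.55 at 0.5 nM, a mean of 7.99 over the 2 arrays kept at 0.25 nM, and 8.20 on each control array. The doses lay on opposite sides of control, by 0.36 and -0.21, a difference of 0.57 between them. TRIM56, which boosts STING signalling, also had its doses on opposite sides, with 7.97, 7.96 and 7.96 at 0.5 nM, 7.59, 7.57 and 7.57 at 0.25 nM, and 7.73, 7.83 and 7.83 in control. RNF146, which destroys the Wnt scaffold axin, had 7.15, 7.14 and 7.14 at 0.5 nM, 6.71, 6.69 and 6.69 at 0.25 nM, and 7.05 on each control array, again with a dose on either side.

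Lower at 0.5 nM than at 0.25 nM were TRIM8 (-0.32), TRIM38 (-0.26), RNF41 (-0.23) and RNF10 (-0.19). TRIM38, which restrains innate immune signalling, had 8.82, 8.78 and 8.79 at 0.5 nM, 8.99, 9.08 and 9.08 at 0.25 nM, and 8.87, 8.91 and 8.88 in control. RNF10, a ligase of the small ribosomal subunit, had 8.28, 8.30 and 8.30 at 0.5 nM, 8.32, 8.56 and 8.56 at 0.25 nM, and 8.43, 8.60 and 8.60 in control. The doses of TRIM38 fell on either side of control, while the 0.25 nM arrays of RNF10 overlapped control. The 9-array limma fit called the difference between doses for TRIM8 and TRIM38 (adjusted p 3.22e-05 and 0.000108) and did not for RNF41 and RNF10 (adjusted p 0.0733 and 0.063).

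**Figure D5:**
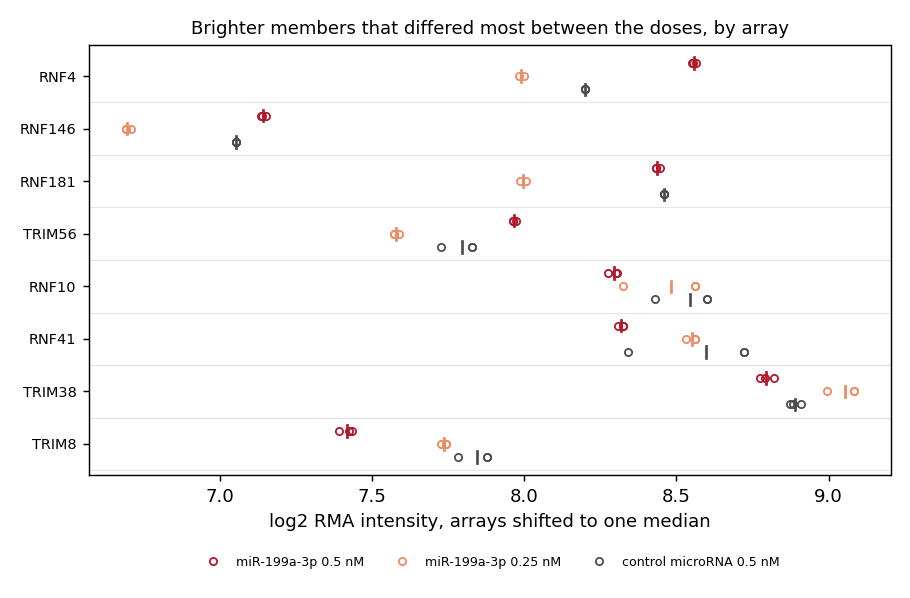
Shifted log2 intensity of the 8 brighter members that differed most between 0.5 nM and 0.25 nM, each point an array and each tick a group mean. RNF4, RNF146, TRIM56 and TRIM38 have the 2 doses on opposite sides of control, and the control arrays of RNF10 and RNF41 spread more than those of RNF4.

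RING ligases and cofactors outside the numbered families, 25 measured of 50 listed, gave 0 calls in the group-level limma test. The 9-array limma fit called 3 higher and 9 lower at 0.5 nM (33.2% and 30.1% of all genes). At 0.25 nM it called 4 higher and 9 lower (30.3% and 33.9% of all genes). The median mean change was -0.03, and whether the counts differ from the shares of all genes was not tested. MID1, a microtubule ligase of the TRIM fold, lay at 0.17 and 0.16, BARD1, the partner of BRCA1, at 0.06 and 0.27, and MYLIP, which degrades the LDL receptor, at 0.29 and -0.04. PML, the scaffold of nuclear bodies and itself a TRIM protein, lay at -0.23 and -0.26, and MDM4, the p53 inhibitor, at -0.13 and -0.32.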

How the data were processed

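Total RNA of WM266-4 cultures went onto 9 whole-transcript arrays of 1 colour, with biotin as label. The deposited log2 intensities were made by the authors with oligo, affy and RMA, per the submitters' processing notes. Their versions and order, and the build, were not given in the sources used here. Of 44629 rows, 15835 have exactly 1 gene symbol in the platform annotation, and the 28794 that do not were left out. The brightest row per gene was kept (14812 genes). Array medians over all rows were 4.94 to 5.21. In 0.25 nM replicate 3 no value has 0 as first decimal (4178 to 4774 in other columns), so values of under 10 digits were left out there (19.1% of genes, 27 members), and the affected means rest on 2 arrays. The precision of the 9-array test rests on 3 arrays per group, with many rows tied, and that of the group-level test on the difference between the doses.

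Arrays were shifted to the same median, which took 0.09 from changes at 0.5 nM and 0.16 from those at 0.25 nM. Tests were limma 3.58.1 in R 4.3.3, two-sided, Benjamini-Hochberg over 14812 genes, threshold 0.05. The group-level test was fitted with an intensity trend to the 3 group means (35.9 prior degrees of freedom) and contrasts the mean of both doses with control. The 9-array test fits a mean per group. The scripts were tested on simulated data. Alternatives were no shift, quantile normalization, all values as deposited, a level filter, the mean of a gene's rows, the intensity trend, the replicate block and leaving out each array.

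The labels give groups the same replicate numbers. Deviations from group means correlated at 0.14 to 0.59 over the 9 same-number pairs and at -0.47 to 0.36 over the 18 others; replicate 1 stands apart, and replicates 2 and 3 correlate with each other across groups. Every same-number pair exceeds 0.1, but so does every pair of a replicate 2 with a replicate 3 of another group. Replicate 2 at 0.5 nM correlated at 0.34 with replicate 3 at 0.25 nM and at 0.28 with replicate 2 there. The correlations thus set replicate 1 apart and cannot show how replicates 2 and 3 pair. Pairing by number, as in the replicate block, is an assumption for them.

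Members, role lists and tests were chosen with earlier results of these data known. Named are, by mean change with the same sign at both doses, the 10 highest and 10 lowest brighter members (control mean 7 or more) and the 5 highest and 5 lowest dimmer ones, the largest change and the brightest gene per role list, the 4 furthest above and 4 furthest below between doses, the neighbours of the level of 7, the 5 brightest, and the 3 highest and 3 lowest other RING genes.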

Additional observations from a re-analysis of the deposited data

Results flagged for a closer look

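Between 0.5 nM and 0.25 nM of the same mimic, the 9-array limma fit called 76 of the 126 members different (60.3%), against 62.2% of all genes. Of these, 47 were higher and 29 lower at 0.5 nM. They drew attention because the effects of both doses, taken against the same control arrays, differed by the test of the difference itself. The share of members is near that of all genes, and what makes the groups differ so widely was not tested.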

How the results depend on the processing

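The group-level count of 0 members became 1 with all values as deposited in 0.25 nM replicate 3 and 1 with the mean of each gene's rows, and ran from 0 to 1 over the left-out arrays; the member was TRIM64 each time. Restricting the fit to genes at or above the median level left 78 members tested, of which 45 were called at 0.5 nM (57.7%, against 51.1% of all genes in that fit), 45 at 0.25 nM (57.7%, against 53.3%) and 37 between doses (47.4%, against 49.2%). With all 126 members tested, counts over the left-out arrays ran from 68 to 89 at 0.5 nM, where 58.3% to 66% of all genes were called. They ran from 71 to 85 at 0.25 nM (58.9% to 64.8% of all genes) and from 64 to 80 between doses (58.4% to 63.9%). With a replicate block, which assumes pairing by number, limma called 87 members at 0.5 nM, 80 at 0.25 nM and 80 between doses. That fit called 65.7%, 67.4% and 65.4% of all genes. The group-level limma test called 0 of all genes without the intensity trend, without the shift, with quantile normalization and without 0.25 nM replicate 1. In those settings its 0 members carries no information. Beside RNF157, the block brought TRIM33 (adjusted p 0.0494) and MYLIP (0.0137) past the limma threshold at 0.5 nM and took away TRIM11 at 0.5 nM (0.0658) and TRIM32 and TRIM37 at 0.25 nM (0.0581 and 0.0509); it changed no other call of a named gene against control. Without the shift the mean change turned positive for TRIM33 (0.0391), RNF145 (0.0340), RNF19B (0.0329), RNF13 (0.0264), RNF114 (0.1102), TRIM2 (0.0257), TRIM9 (0.1002), TRIM56 (0.1002), TRIM11 (0.0780) and TRIM28 (0.0167), as did TRIM11 at 0.5 nM (0.0256) and, at 0.25 nM, TRIM8 (0.0481), TRIM33 (0.0529), RNF13 (0.0705) and TRIM9 (0.0983). With replicate 3 as deposited it turned for RNF145 (0.0127), TRIM2 (0.0393) and TRIM11 (0.0354), and at 0.25 nM for RNF145 (0.0121) and TRIM2 (0.0759). Quantile normalization turned RNF114 (0.0131) and TRIM56 (0.0118), and the mean of rows TRIM27 at 0.5 nM (-0.0085). Over the left-out arrays the mean change of RNF157 ran from -0.0509 (without control replicate 1) to 0.192, and that of RNF114 from -0.0518 to 0.0219. The causes were not tested beyond the construction of each setting. Arrays give no read depth, and signal near the dim end limits the TRIM copies.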
